A study of Homo sapiens with 25 samples.

Results

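Of 35854 regions bound by the histone methyltransferase MLL4 in at least 1 of 4 libraries of HCT116 cells, 2183 were bound in all 4, and 474 of these constant sites lay outside shared H3K4me3. The 474 sites were found by merging the peaks of 2 FOXD2 and 2 control MLL4 lists on chromosomes 1 to 22 and X. A site had to hold a peak of every MLL4 list and not to hold peaks of both H3K4me3 lists. The remaining 1709 constant sites, which held H3K4me3 peaks of both lists, served for comparison. The sites were thus selected on their MLL4 and H3K4me3 peaks, and the values of these at the sites are given only as a description.

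MLL4, the product of KMT2D, is a methyltransferase that places a single methyl group on lysine 4 of histone H3 (H3K4me1) at enhancers, where it also brings in acetyltransferases that add H3K27ac. H3K4me1 alone marks enhancers that are primed, and H3K4me1 with H3K27ac marks enhancers in use. H3K4me3 marks active promoters, and FOXD2 is a forkhead transcription factor.

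HCT116 is an established human colorectal carcinoma line. FOXD2 cells carried the full-length FOXD2 coding sequence in the pSin lentiviral vector, and control cells carried the empty vector. Both were kept under puromycin as transduced cells, so FOXD2 was supplied from a vector in all FOXD2 libraries. H3K4me1, H3K27ac and MLL4 were each mapped in 2 FOXD2 and 2 control libraries, and H3K4me3 in 1 library of each. Tagged FOXD2 was mapped in HCT116 cells given the plasmid pcDNA3.1-FOXD2-3xflag-6xhis, with 2 libraries precipitated by the 6xHis tag and 2 by FLAG. The sample labels list puromycin for these tag libraries too, at the same dose as for the FOXD2 and control libraries. No list from untagged cells was analysed here. The labels do not tell whether replicates came from separate cultures, so p-values measure only how far these libraries differ, and that may be technical.

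The MLL4 lists held 22493 and 4676 peaks in FOXD2 cells and 16046 and 13571 peaks in control cells. FOXD2 replicate 2 stood apart, and with it left out of the rule the sites numbered 965. The H3K27ac lists held 85122 and 141008 peaks in FOXD2 cells and 129995 and 85832 in control cells, so list length did not separate the groups. H3K4me1 lists held 114893 and 129887 peaks in FOXD2 cells and 101204 and 95756 in control cells. Read depth is unknown, so a missing peak gives no limit on the signal, and a peak cannot tell a mark in more cells from more of it per cell. As a check of the cell label, all 13 epithelial marker genes had H3K4me3 of both lists within 1 kb of a gene end. So did 3 of 7 colon markers (CDX2, LGR5 and HNF4A, but not CDX1, VIL1, GPA33 or CDH17), 2 of 10 blood markers, 2 of 10 fibroblast and endothelial markers and 5 of 8 neural markers.

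Of the promoters in the RefSeq promoter table (GRCh38, the 250 bases before a gene's start), 16 touched one of the 474 sites. The table does not hold every gene, so this count and the shares below cover only the promoters it lists. One or more of the motifs searched stood in 9 of the 16 and none in 7. The 4 below were chosen after the matches were seen, PHACTR4, ANKRD22 and LIMA1 as the protein-coding genes with a match and LOC101928419 for its forkhead match. Capitals mark matches, on either strand, to the AP-1 letters TGANTCA, the forkhead letters TGTTTAC and the TEAD letters GGAATG. PHACTR4 encodes a regulator of actin and protein phosphatase 1, LIMA1 an actin-binding protein, and ANKRD22 an ankyrin repeat protein, while LOC101928419 is a long non-coding RNA gene named here only by its identifier.
PHACTR4, plus strand, chr1:28437900-28438149: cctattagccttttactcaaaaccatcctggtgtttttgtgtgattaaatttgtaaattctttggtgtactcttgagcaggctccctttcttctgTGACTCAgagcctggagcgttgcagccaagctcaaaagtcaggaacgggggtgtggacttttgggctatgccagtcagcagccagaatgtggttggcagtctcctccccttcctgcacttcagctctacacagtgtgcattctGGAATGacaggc
LOC101928419, plus strand, chr5:56123851-56124100: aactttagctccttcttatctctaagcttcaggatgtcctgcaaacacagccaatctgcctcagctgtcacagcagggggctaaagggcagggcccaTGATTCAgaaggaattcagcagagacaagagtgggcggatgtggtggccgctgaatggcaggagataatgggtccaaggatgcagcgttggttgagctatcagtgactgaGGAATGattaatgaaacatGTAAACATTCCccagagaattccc
ANKRD22, minus strand, chr10:88851845-88852094: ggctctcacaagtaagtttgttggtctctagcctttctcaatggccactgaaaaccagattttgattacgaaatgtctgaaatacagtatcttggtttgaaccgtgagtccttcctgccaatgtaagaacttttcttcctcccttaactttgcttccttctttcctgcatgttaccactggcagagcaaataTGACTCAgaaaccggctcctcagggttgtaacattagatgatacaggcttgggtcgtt
LIMA1, minus strand, chr12:50202174-50202423: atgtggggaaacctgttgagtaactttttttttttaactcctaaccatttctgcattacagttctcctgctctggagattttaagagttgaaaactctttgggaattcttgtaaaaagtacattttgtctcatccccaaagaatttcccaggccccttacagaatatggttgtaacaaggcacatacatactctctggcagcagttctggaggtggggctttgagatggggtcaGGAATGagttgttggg

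The AP-1 letters stood in 5 of the 16 promoters, against 6.54% of all 34961 promoters in the table and 12.1% of the 521 that touched a constant site with shared H3K4me3. They began 155 bases before the start of PHACTR4, 153 bases before that of LOC101928419 and 58 bases before that of ANKRD22. The TEAD letters stood in 8 of the 16, against 11.9% of all promoters. The forkhead letters stood in 1 of the 16, LOC101928419, against 2.98% of all promoters, and there the forkhead match overlapped a TEAD match. With 16 promoters these shares are counts only, and a match is not shown to be a bound site. The PHACTR4 site held a peak of all 4 tag lists, the LOC101928419 site of 3, the ANKRD22 site of 2 and the LIMA1 site of 1. The ANKRD22 site held no H3K27ac peak of any list, and the other 3 held H3K27ac of 2 lists.

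The sites lay mostly away from genes' ends. Their median width was 760 bp (350 to 1749), against 1013 bp for constant sites with shared H3K4me3. Over all MLL4 regions it was 416 bp, so the sites were wider than most MLL4 regions. A wider region has more room to overlap a peak, and the part of width in the shares below was not tested. The summits called in the 4 MLL4 libraries spread over a median of 159 bp within a site. In all, 409 sites (86.3%, Wilson 95% interval 82.9 to 89.1) had no end of an annotated gene within 2 kb, against 58.1% of the constant sites with shared H3K4me3. Within 2 kb of an end of a protein-coding gene lay 19 sites (4.01%), against 28.7% of the comparison sites, so the comparison sites were not mainly at gene ends either. The median distance to the nearest such end was 29.4 kb for the 474 sites and 9.93 kb for the comparison sites. Inside the span of a protein-coding gene lay 194 sites (40.9%), against 60.0% of the comparison sites. The sites were mostly scattered singly, since 56 of 474 had another within 100 kb.

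The MLL4 peaks themselves covered a wide range of strength. The authors' deposited fold of the strongest MLL4 peak at a site had medians of 6.22 and 6.23 in the FOXD2 lists and of 6.93 and 8.17 in the control lists. The highest values were 18.7 and 21.0 in FOXD2 lists and 24.7 and 30.2 in control lists, and the lowest lay between 2.58 and 3.24. The sites therefore ran from strong peaks to peaks near the bottom of each list.

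Where H3K4me3 was present at a site, it was in 1 list and weak. Of the 474 sites, 72 held H3K4me3 in the FOXD2 list only, 161 in the control list only and 241 in neither. The deposited H3K4me3 fold at these sites had a median of 5.85 in the FOXD2 list and 6.24 in the control list. At constant sites with shared H3K4me3 the medians were 15.9 in the FOXD2 list and 17.8 in the control list, and over all H3K4me3 peaks they were 50.7 in the FOXD2 list and 44.8 in the control list. Just outside a peak, 5 sites without one in the FOXD2 list and 7 without one in the control list had one within 200 bp. Just inside, 3 sites in the FOXD2 list and 1 in the control list overlapped an H3K4me3 peak by at most 50 bp. The difference between 72 and 161 sites (15.2% and 34.0%) rests on 1 library per group and has no replicate check. It was not particular to these sites. Of all 20778 MLL4 regions without shared H3K4me3, 772 (3.72%) held H3K4me3 in the FOXD2 list and 1762 (8.48%) in the control list.

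All 474 sites held H3K4me1 in all 4 lists. The share was 100% in either FOXD2 library and in either control library, with a lower Wilson bound of 99.2%. Over all MLL4 regions, 58.5% held H3K4me1 in all 4 lists. Among regions in 3 of 4 MLL4 lists without shared H3K4me3, the share was 99.4%, and among constant sites with shared H3K4me3 it was 97.1%. Averaged over lists, the H3K4me1 share was 1.71 percentage points higher at the 474 sites than at constant sites with shared H3K4me3, with the difference between 1.17 and 2.22 in every list. With FOXD2 replicate 2 left out of the MLL4 rule it was 4.72 points. Among sites of both classes over 2 kb from gene ends it was 0.151 points, and with an overlap of 50% required it was 8.48 points. The exact sign-flip test over the 4 lists gave p = 0.125, the smallest that 4 lists allow, and p = 0.125 after adjustment over the 3 kinds of list compared.

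H3K4me1 was centred on the MLL4 summit and fell away within a few kilobases. At the summit, 98.9% and 95.4% of sites lay under an H3K4me1 peak in FOXD2 lists and 99.4% and 98.9% in control lists. At 2 kb to either side these shares were 51.9% and 54.7% in FOXD2 lists and 45.1% and 40.3% in control lists. At 5 kb they were 25.4% and 27.3% in FOXD2 lists and 21.7% and 18.5% in control lists. At both distances each FOXD2 list lay above each control list, whereas at the summit the groups overlapped. The merged H3K4me1 region around a site had a median width of 5045 bp, and 15.6% of sites lay in one over 10 kb.

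**Figure D1:**
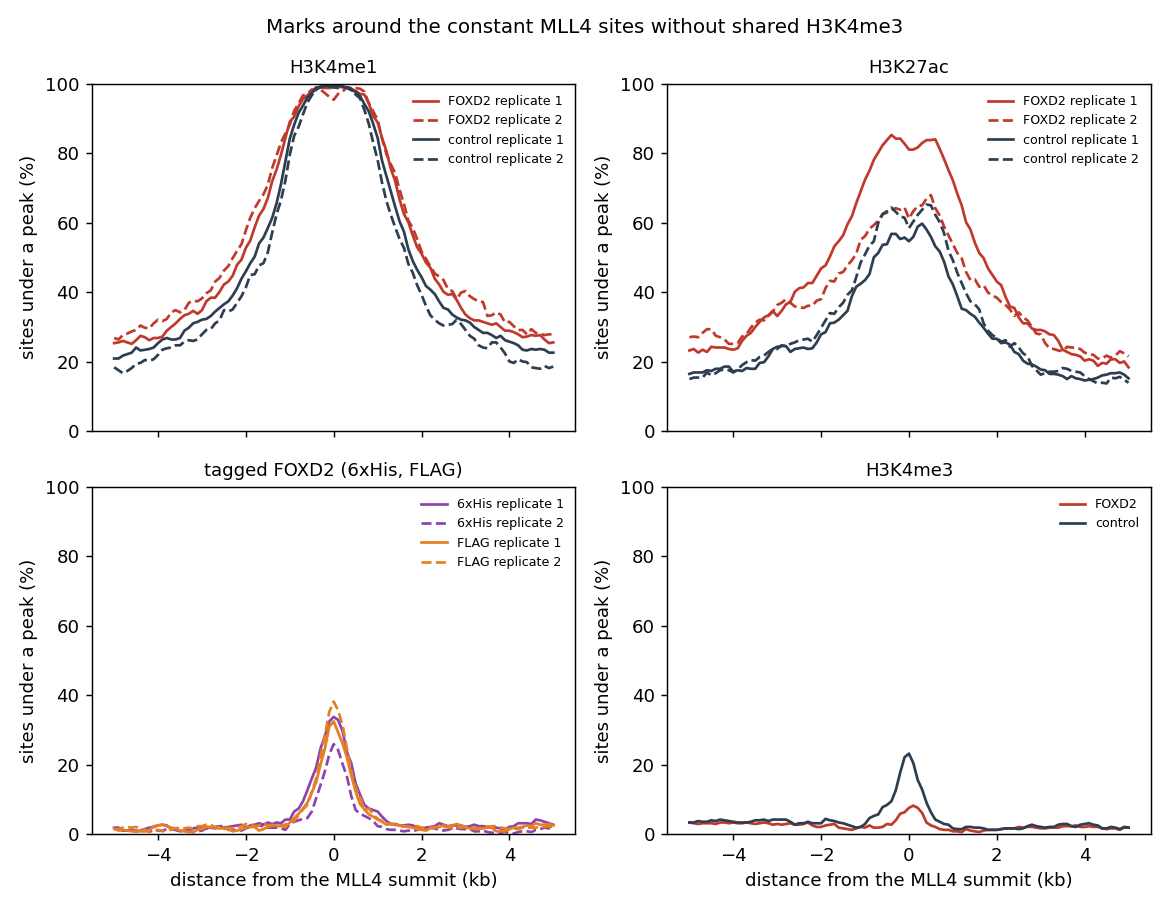
Share of the 474 sites under a peak (vertical axis, %) by distance from the MLL4 summit (horizontal axis, kb), 1 line per list, with solid lines for replicate 1 and dashed lines for replicate 2. H3K4me1 reaches 95.4% to 99.4% at the summit, H3K27ac 54.6% to 81.0% with a dip at the summit, tagged FOXD2 25.9% to 38.2% in a narrow peak, and H3K4me3 7.59% in the FOXD2 list and 23.2% in the control list.

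H3K27ac was present at most of the sites but at fewer of them than at constant sites with shared H3K4me3. A peak of all 4 H3K27ac lists lay at 323 sites (68.1%, Wilson 95% interval 63.8 to 72.2), against 49% of all MLL4 regions and 91.6% of the comparison sites. In single FOXD2 lists 92.2% and 84.0% of the 474 sites held H3K27ac, and in control lists 77.4% and 81.2%. At the comparison sites the shares were 98.1% and 98.0% in FOXD2 lists and 94.8% and 94.9% in control lists. The 474 sites were lower in each of the 4 lists, with a mean difference of -12.7 ± 4.83 percentage points (SD, n = 4 lists), or -20.3 points with an overlap of 50% required. The exact sign-flip test gave p = 0.125, the smallest that 4 lists allow. Counting only peaks over the MLL4 summit itself, the shares were 81.0% and 61.2% in FOXD2 lists and 54.6% and 58.4% in control lists at the 474 sites.

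No H3K27ac peak of any list lay at 21 sites, and 1 to 3 lists held a peak at 130. Sites short of a list were less common here than among MLL4 regions as a whole. All 4 lists held a peak at 68.1% of the 474 sites, against 49% of all MLL4 regions. The share was 60.2% in regions of 3 of 4 MLL4 lists without shared H3K4me3 and 91.6% at constant sites with shared H3K4me3. The 21 sites had a median width of 602 bp, against 794 bp for the 323 with H3K27ac of all 4 lists. Their median H3K4me1 coverage in the surrounding 10 kb was 3.79 and 4.01 kb in FOXD2 lists and 3.06 and 2.84 kb in control lists. The 323 sites had 5.65 and 5.90 kb in FOXD2 lists and 5.19 and 4.65 kb in control lists, so the sites without H3K27ac also carried less H3K4me1. The median deposited MLL4 fold of the 21 sites was 6.62 and 6.80 in FOXD2 lists and 5.98 and 6.90 in control lists, and that of the 323 sites 6.26 and 6.20 in FOXD2 lists and 7.24 and 8.63 in control lists. Chosen after their values were seen, the strongest of the 21 by MLL4 rank lay near ZNF648, a zinc finger gene, inside ARHGAP32, which encodes a GTPase-activating protein, and near ASB13, which encodes an ankyrin repeat protein. Others lay 35.7 kb from SEMA3E, a semaphorin gene, and 51.2 kb from EDN1, which encodes endothelin.

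**Figure D2:**
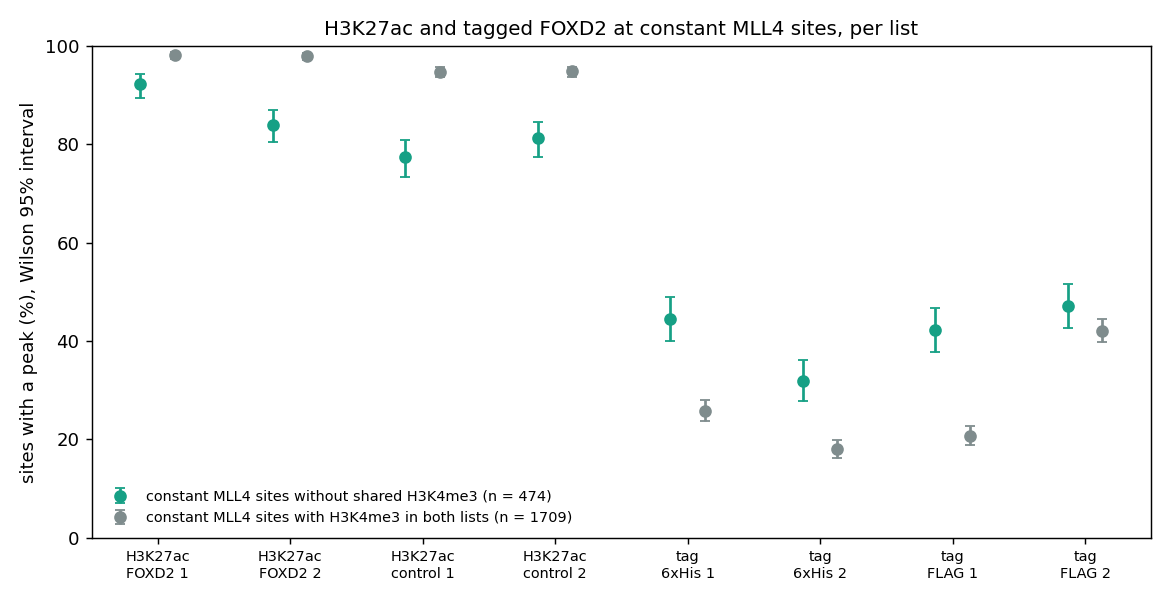
Share of sites with a peak (vertical axis, %, with Wilson 95% intervals that cover the counting of sites only) in each H3K27ac list and each tag list (horizontal axis), for the 474 sites and for the 1709 constant MLL4 sites with H3K4me3 in both lists. The 474 sites are lower than the comparison sites in all 4 H3K27ac lists and higher in all 4 tag lists.

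H3K27ac covered more of the sequence around the sites in each FOXD2 list than in each control list. The share of sites with a peak was 88.1% ± 5.82 in FOXD2 cells and 79.3% ± 2.69 in control cells (SD, n = 2 each), and the difference of 8.76 percentage points had an exact permutation p = 0.333, the smallest that 2 lists against 2 allow. Without FOXD2 replicate 1 that difference was 4.64 points. At equal list lengths it was 7.89 points over 209 sites, and the groups overlapped (exact permutation p = 0.667). Within 5 kb of the centre of each site, H3K27ac peaks covered on average 4480 and 3884 bp in FOXD2 lists and 2893 and 3121 bp in control lists. Both FOXD2 lists were above both control lists, and the means of 4182 ± 421 and 3007 ± 162 bp (SD, n = 2 each, FOXD2 and control) differed by 1175 bp (exact permutation p = 0.333). The same direction held at constant sites with shared H3K4me3, with 5947 ± 315 bp in FOXD2 cells and 4710 ± 194 bp in control cells. Over all MLL4 regions the groups overlapped, with 3635 ± 720 bp in FOXD2 cells and 2953 ± 489 bp in control cells. The FOXD2 minus control difference at the 474 sites, less that at the comparison sites, was -61.8 bp with an exact permutation p = 1, and no difference between the classes was shown. H3K27ac peaks were wider in the FOXD2 lists as a whole, with medians of 779 and 721 bp, against 653 and 655 bp in control lists, and the part of peak width in the coverage was not tested.

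Site by site, 241 of 474 (50.8%) had more H3K27ac coverage in each FOXD2 list than in each control list, against 28.4% of all MLL4 regions and 52.7% of constant sites with shared H3K4me3. In the other direction, 29 sites (6.12%) had less in both FOXD2 lists, against 5.43% of all MLL4 regions. The median difference between group means was 1.05 kb, and the interquartile range ran from 0.08 to 2.13 kb. Over all MLL4 regions the median difference was 0.47 kb. With FOXD2 replicate 2 left out of the MLL4 rule, 448 of 965 sites had more and 71 had less. The count with less rests on single lists, being 98 and 54 sites without FOXD2 H3K27ac replicate 1 or 2, 72 without control replicate 1 and 54 without FOXD2 MLL4 replicate 1.

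**Figure D3:**
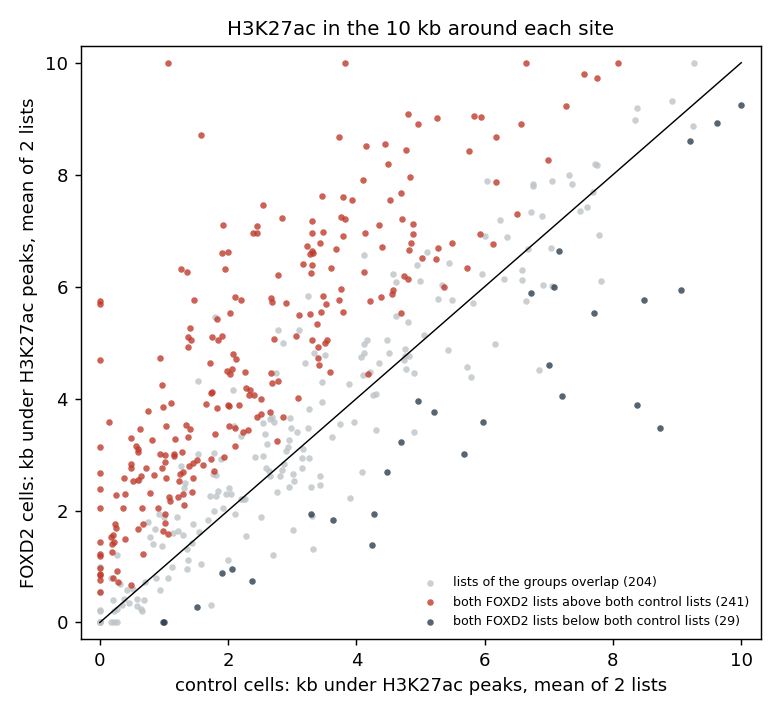
Each of the 474 sites by the mean kb under H3K27ac peaks in the surrounding 10 kb in FOXD2 cells (vertical axis) and in control cells (horizontal axis), each the mean of 2 lists, with the line of equality. The 241 sites with both FOXD2 lists above both control lists lie over the line and the 29 in the opposite order under it.

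H3K27ac peaks present in both FOXD2 lists and neither control list lay at 30 sites (6.33%), against 3.72% of all MLL4 regions. The share was 1.58% at constant sites with shared H3K4me3. In regions of 3 of 4 MLL4 lists without shared H3K4me3 it was 7.32%, so the 30 sites were not a higher share than in that class. The reverse pattern lay at 1 site (0.211%), against 0.985% of all MLL4 regions. The strongest of the 30 by MLL4 rank was inside ARHGAP25, which encodes a GTPase-activating protein. Its surrounding 10 kb held 2.11 and 2.45 kb of H3K27ac in FOXD2 lists and 0.518 and 0 kb in control lists. A site 14.0 kb from CASQ2, the gene of a calcium-binding protein of heart muscle, held 2.23 and 0.635 kb in FOXD2 lists and 0 kb in either control list. A site 29.3 kb from TOMM20, a mitochondrial import receptor gene, was the most marked, with all 10 kb covered in both FOXD2 lists and 1.33 and 0.781 kb in control lists. A site 45.3 kb from DMRTB1, the gene of a DM-domain transcription factor, held 3.00 and 2.42 kb in FOXD2 lists. It held 1.71 and 1.86 kb in control lists, where control peaks stood in the window but not on the site. At none of these 4 sites did the groups overlap, and the FOXD2 lists were the higher at each. The 4 sites were chosen on H3K27ac peaks of these same lists, so their order is only a description. The same holds for the control-only site. The 1 control-only site, chr4:123587877-123588625, had no protein-coding gene within 100 kb and carried all 4 tag lists. It held 0 kb in either FOXD2 list and 1.22 and 0.729 kb in control lists.

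H3K4me1 coverage was also higher in both FOXD2 lists, while every list held a peak at every site. Within 5 kb, H3K4me1 peaks covered 5299 and 5532 bp in FOXD2 lists and 4908 and 4538 bp in control lists, with means of 5415 ± 165 bp in FOXD2 cells and 4723 ± 261 bp in control cells (SD, n = 2 each). Both FOXD2 lists exceeded both control lists by this measure, and the difference of 693 bp had an exact permutation p = 0.333. Both FOXD2 lists also held more H3K4me1 peaks than either control list, and at equal list lengths the difference was 431 bp over 209 sites (exact permutation p = 0.333). With the full lists, the difference was also taken in the comparison class. At constant sites with shared H3K4me3 it was 491 bp. The difference at the 474 sites, less that at these, was 201 bp (exact permutation p = 0.667). Of the 474 sites, 243 (51.3%) had more H3K4me1 in each FOXD2 list than in each control list, against 27.1% of all MLL4 regions. The share was 44.0% in regions of 3 of 4 MLL4 lists without shared H3K4me3 and 38.7% at constant sites with shared H3K4me3. Another 101 of the 474 sites (21.3%) had less in both, against 17.8% of all MLL4 regions. In those 2 classes 23.7% and 14.7% had less. With FOXD2 replicate 1 left out of the MLL4 rule 170 sites had less, and with replicate 2 left out 422 of 965 had more and 231 less. No site held H3K4me1 in both lists of a group and neither list of the other, against 1.31% of all MLL4 regions for FOXD2-only and 1.15% for control-only H3K4me1.

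In 175 sites (36.9%) both marks had more coverage in both FOXD2 lists, against 14.9% of all MLL4 regions and 28.3% of constant sites with shared H3K4me3. In 24 sites (5.06%) both had less, against 2.73% of all MLL4 regions. Another 12 sites (2.53%) had less H3K4me1 and more H3K27ac in FOXD2 cells, against 2.06% of all MLL4 regions, and 2 (0.422%) the reverse, against 0.435%. Across the 474 sites the differences in coverage of the 2 marks had Pearson's r = 0.66 and a Spearman correlation of 0.63. Across all 20778 MLL4 regions without shared H3K4me3, r was 0.52 and the Spearman correlation 0.40. These correlations are a description across regions that share the same 8 libraries.

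Tagged FOXD2 was found at more of the 474 sites than at constant sites with shared H3K4me3. The 6xHis lists held a peak at 44.5% and 31.9% of the sites and the FLAG lists at 42.2% and 47.0%. At the comparison sites the shares were 25.9% and 18.0% for 6xHis and 20.8% and 42.1% for FLAG. The 474 sites were higher in each of the 4 lists, by 14.7 ± 7.24 percentage points (SD, n = 4 lists), from 4.92 in FLAG replicate 2 to 21.4 in FLAG replicate 1. The exact sign-flip test gave p = 0.125, the smallest that 4 lists allow. All 4 tag lists held a peak at 94 sites (19.8%), against 3.54% of all MLL4 regions and 10.2% of the comparison sites. At least 1 tag list held a peak at 312 sites (65.8%), against 23.3% of all MLL4 regions and 49.1% of the comparison sites. In regions of 3 of 4 MLL4 lists without shared H3K4me3 these shares were 11.8% and 52.1%, also above those of the comparison sites.

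Where a tag peak overlapped a site, its summit lay a median of 168 and 157 bp from the MLL4 summit in the 6xHis lists and 166 and 136 bp in the FLAG lists. The width of a site bounds these distances, since tag peaks not overlapping the site were not counted. Sites with all 4 tag lists had a median width of 802 bp, and sites with none 738 bp. H3K27ac of all 4 lists lay at 69.1% of the sites with all 4 tag lists and at 68.5% of those with none.

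The strongest tag peaks among the 94 sites lay near RAB10, a small GTPase gene of vesicle traffic, inside PHACTR4, inside TIAM1, the gene of an exchange factor for the GTPase Rac, inside NSMCE2, the gene of a SUMO ligase of the SMC5/6 complex, and near CAVIN2, a caveola coat gene. At the TIAM1 site, chr21:31354171-31355676, the deposited tag folds were 5.82 and 7.05 for 6xHis and 6.95 and 7.11 for FLAG. H3K27ac covered 4.40 and 3.36 kb there in FOXD2 lists and 7.52 and 9.23 kb in control lists. At the RAB10 site, chr2:26011774-26013208, H3K27ac covered 6.42 and 5.46 kb in FOXD2 lists and 3.97 and 5.18 kb in control lists. The groups overlapped at neither site, and they stood in opposite order, with FOXD2 lists lower at TIAM1 and higher at RAB10. At PHACTR4, H3K27ac covered 3.22 and 2.02 kb in FOXD2 lists and 0 and 1.28 kb in control lists, with FOXD2 lists higher. At CAVIN2 the FOXD2 lists held 3.4 and 1.52 kb of H3K27ac and the control lists 3.71 and 3.15 kb, so the groups overlapped.

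In a comparison chosen after the values were seen, the difference between FOXD2 and control cells was smaller at sites with all 4 tag lists than at sites with none. At the 94 sites with all 4 tag lists, H3K27ac covered 4545 and 3415 bp in FOXD2 lists and 3137 and 3788 bp in control lists, and the groups overlapped. At the 162 sites with no tag list it covered 4530 and 4534 bp in FOXD2 lists and 2902 and 2752 bp in control lists, and the groups lay far apart. The FOXD2 minus control difference at sites with all 4 tag lists, less that at sites with none, was -1188 bp for H3K27ac and -844 bp for H3K4me1 (exact permutation p = 0.333 for each, the smallest possible). The FOXD2 H3K27ac lists were unlike in this, since coverage at sites with all 4 tag lists less that at sites with none was 14.7 bp in replicate 1 and -1120 bp in replicate 2, against 235 and 1036 bp in the control lists. Without FOXD2 replicate 2 the H3K27ac value was -621 bp, and without control replicate 2 it was -787 bp. Nor was it a steady trend, since the H3K27ac difference between FOXD2 and control cells was 1297, 665 and 1201 bp at sites with 1, 2 and 3 tag lists. H3K4me1 at sites with all 4 tag lists covered 5410 and 5723 bp in FOXD2 lists and 5517 and 5123 bp in control lists. At sites with none it covered 5163 and 5334 bp in FOXD2 lists and 4358 and 3957 bp in control lists. The sites with all 4 tag lists thus had the higher H3K4me1 coverage in control cells, and in FOXD2 cells the classes were closer.

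Site by site, 34.0% of the sites with all 4 tag lists had more H3K27ac in both FOXD2 lists, against 60.5% of those with no tag list. For H3K4me1 35.1% of the sites with all 4 tag lists had more in both FOXD2 lists and 30.9% had less. Of those with no tag list 58.6% had more and 14.2% less. At constant sites with shared H3K4me3, the H3K27ac excess in FOXD2 cells was 756 bp with all 4 tag lists and 1340 bp with none. At regions in 3 of 4 MLL4 lists without shared H3K4me3 it was 150 bp with all 4 tag lists and 1306 bp with none. Over all MLL4 regions without shared H3K4me3 it was 605 bp with no tag list, 859, 744 and 658 bp with 1, 2 and 3, and 244 bp with all 4. The lowest value was thus that of regions with all 4 tag lists in each of these classes. At constant sites with shared H3K4me3 the excess was 1309, 1190 and 1082 bp with 1, 2 and 3 tag lists. At regions in 3 of 4 MLL4 lists without shared H3K4me3 it was 1085, 900 and 1084 bp. In both classes every group with a tag list lay below the group with none. The same held at constant sites without shared H3K4me3, but not over all MLL4 regions without shared H3K4me3.

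**Figure D4:**
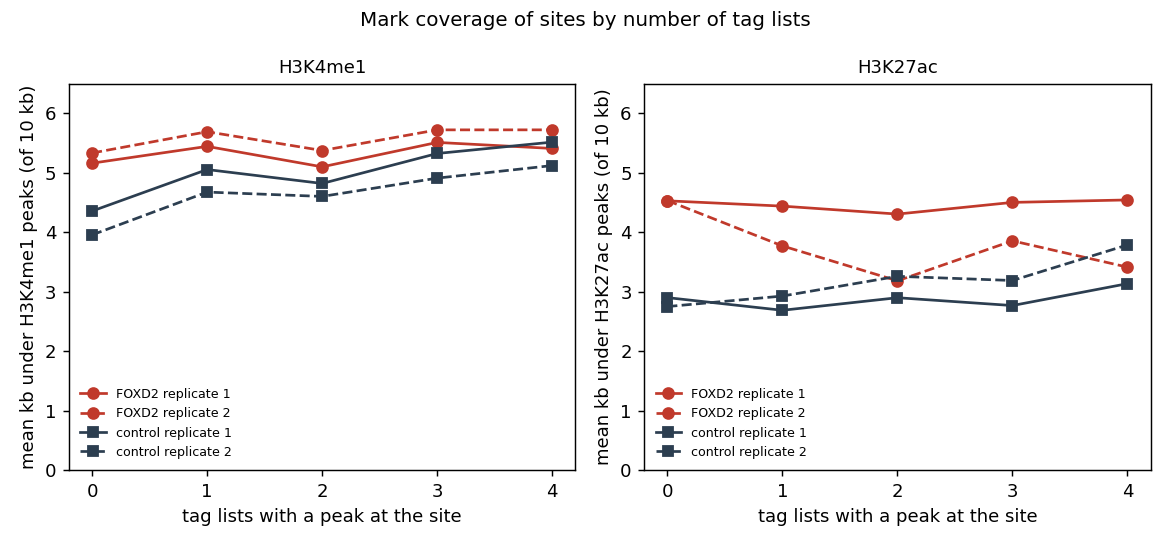
Mean kb under H3K4me1 peaks (left) and H3K27ac peaks (right) in the 10 kb around a site (vertical axes) by the number of tag lists with a peak at it (horizontal axis), 1 line per list, with 162, 87, 71, 60 and 94 sites for 0 to 4 tag lists. The control lists are higher with 4 tag lists than with 0, and the gap between the FOXD2 and control lists is narrower.

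By the rank of their peaks over the 4 MLL4 lists, the first of the 474 sites was chr12:127125482-127126803, inside LOC107984449, which the gene table lists as protein-coding. Its deposited MLL4 folds were 14.4 and 12.9 in FOXD2 lists and 15.7 and 25.9 in control lists. H3K27ac covered 5.17 and 4.34 kb around it in FOXD2 lists and 4.22 and 5.42 kb in control lists, and the groups overlapped. The site with the second rank lay 22 kb from TFAP2C, the gene of the transcription factor AP-2 gamma. H3K27ac covered 5.60 and 7.53 kb there in FOXD2 lists and 5.67 and 2.57 kb in control lists, again with overlap. H3K4me1 at the TFAP2C site was 6.12 and 5.99 kb in FOXD2 lists and 4.18 and 3.10 kb in control lists, with both FOXD2 lists higher.

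Among the other sites of highest rank, the groups separated at 4 for H3K27ac. Of all 474 sites 50.8% had more in both FOXD2 lists and 6.12% less, against 28.4% and 5.43% of all MLL4 regions. A site 66.9 kb from CCN6, a gene of a secreted matrix protein, had 3.77 and 1.55 kb of H3K27ac in FOXD2 lists. The control lists had 1.54 and 0.964 kb there, a bare separation. A site 18.1 kb from EAPP, the gene of a phosphoprotein that binds E2F factors, was also separated. H3K27ac covered 7.31 and 6.56 kb there in FOXD2 lists and 5.79 and 6.08 kb in control lists. At chr14:54251860-54252798, with no protein-coding gene within 100 kb, it covered 9.69 and 7.34 kb in FOXD2 lists and 4.58 and 3.70 kb in control lists. The FOXD2 lists were the higher at these 3. Near SLC25A4, the gene of a mitochondrial carrier of ADP and ATP, the order was the reverse, with 1.82 and 1.85 kb of H3K27ac in FOXD2 lists and 3.37 and 3.91 kb in control lists. The SLC25A4 site carried all 4 tag lists. At TM4SF1, a surface protein gene, GASK1B, a Golgi kinase-like gene, PPM1H, a phosphatase gene, and GEM, a small GTPase gene, the H3K27ac values of the groups overlapped.

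**Figure D5:**
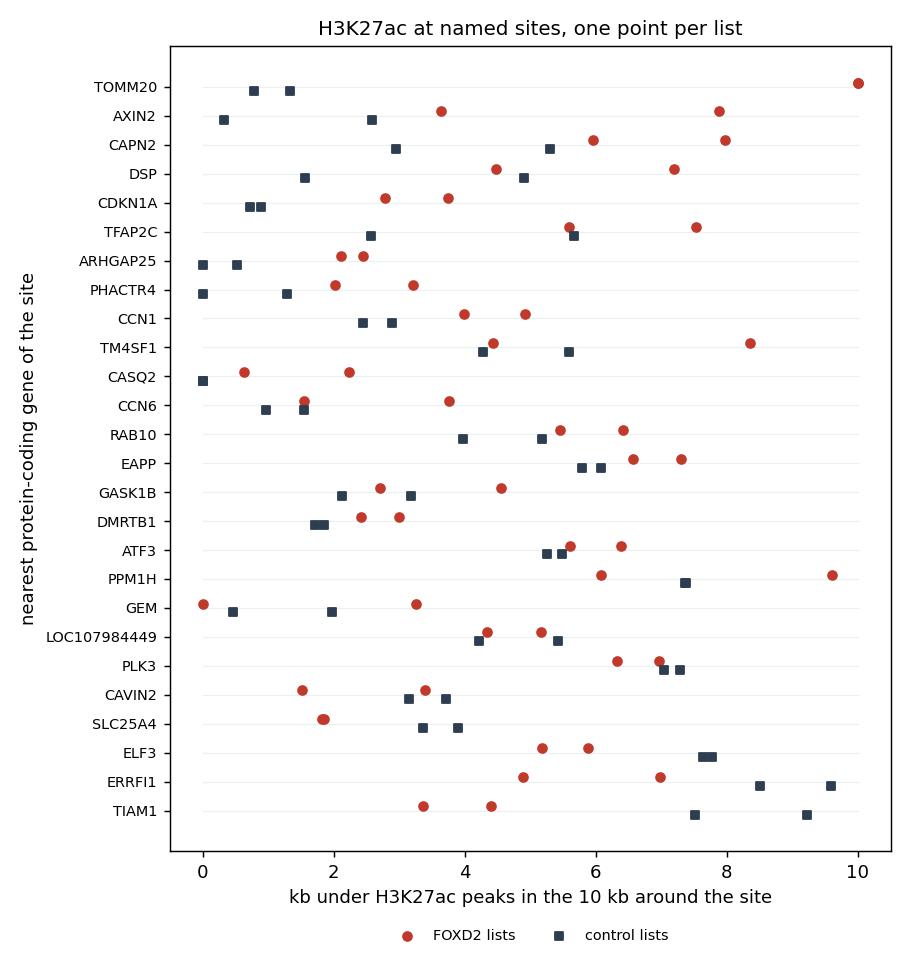
Kb under H3K27ac peaks in the 10 kb around named sites (horizontal axis), 1 point per list, with FOXD2 lists (circles) over control lists (squares) for each site, labelled by nearest protein-coding gene (vertical axis) and ordered by the difference between group means. TOMM20 stands at the top with 10 kb in both FOXD2 lists, and TIAM1 at the bottom with 4.40 and 3.36 kb in FOXD2 lists and 7.52 and 9.23 kb in control lists.

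The sites were assigned to 388 of 19974 protein-coding genes (1.94%), and 22 of these had more than 1 site. The 3 genes with 3 sites each were THSD4, which encodes a protein of the extracellular matrix, ABTB2, which encodes an ankyrin repeat and BTB domain protein, and NSMCE2. The 3 ABTB2 sites all had more H3K27ac in each FOXD2 list than in each control list. That order was seen at 50.8% of the 474 sites and 28.4% of all MLL4 regions. At the strongest of them, chr11:34263239-34264105, H3K27ac covered 9.11 and 8.98 kb in FOXD2 lists and 6.45 and 5.21 kb in control lists. At the second, chr11:34243146-34244203, it covered 10 and 9.99 kb in FOXD2 lists and 6.22 and 7.06 kb in control lists. At the third, chr11:34274660-34275547, it covered 3.90 and 4.1 kb in FOXD2 lists and 2.91 and 2.12 kb in control lists. The 3 sites lie within 1 gene and share libraries, so they are not independent. H3K4me1 at the third was 6.48 and 7.95 kb in FOXD2 lists and 2.31 and 1.89 kb in control lists, the widest gap in H3K4me1 of the 3. Of the 3 THSD4 sites 1 had both FOXD2 lists above both control lists for H3K27ac, and of the 3 NSMCE2 sites also 1, with overlap at the others. PRAG1, a pseudokinase gene, had 2 sites, both with FOXD2 lists above control lists for H3K27ac.

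The genes of the MLL4 machinery did not themselves hold a site. None of the 10 MLL3 and MLL4 complex genes, 9 coactivator genes or 18 TGF-beta pathway genes was the nearest gene of a site, and neither was FOXD2. Each of the other lists had 1 or 2 genes with a site, against 1.94% of all protein-coding genes. They were 1 of 18 intestinal transcription factor genes (5.56%, ELF3), 2 of 20 AP-1 and YAP genes (10%, CCN1 and ATF3), 1 of 17 Wnt targets (5.88%, AXIN2) and 1 of 19 EGFR and MAPK genes (5.26%, ERRFI1). Likewise 1 of 26 epithelial junction and keratin genes (3.85%, DSP), 2 of 15 p53 targets (13.3%, PLK3 and CDKN1A) and 1 of 17 actin and adhesion genes (5.88%, CAPN2) had a site. At a share of 1.94%, lists as short as these can hold no such gene. Counts of 0, 1 or 2 genes thus set no list apart, those of the MLL4 machinery included.

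Of these 9 genes, 5 had a site with more H3K27ac in both FOXD2 lists, 3 a site with less and 1 a site where the groups overlapped. Of all 474 sites 50.8% had more and 6.12% less, against 28.4% and 5.43% of all MLL4 regions. With 9 genes these are counts only. A site 26.4 kb from AXIN2, a feedback inhibitor of Wnt signalling, had 3.64 and 7.88 kb of H3K27ac in FOXD2 lists and 2.59 and 0.331 kb in control lists. A site 32.7 kb from CDKN1A, which encodes the cell cycle inhibitor p21, had 2.78 and 3.75 kb in FOXD2 lists and 0.726 and 0.887 kb in control lists. Inside CAPN2, a calpain protease gene, H3K27ac was 7.97 and 5.96 kb in FOXD2 lists and 2.96 and 5.31 kb in control lists. In all 3 the FOXD2 lists were higher and the groups did not overlap. CCN1, which encodes a matrix protein downstream of YAP, and ATF3, an AP-1 family gene, had sites in the same order. The CCN1 site lay 22.9 kb from the gene. It had 4.93 and 3.99 kb of H3K27ac in FOXD2 lists and 2.89 and 2.45 kb in control lists. The ATF3 site had 6.38 and 5.60 kb in FOXD2 lists and 5.48 and 5.25 kb in control lists.

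The opposite order was seen at ELF3, ERRFI1 and PLK3. A site 5.67 kb from ELF3, the gene of an epithelial ETS factor, had 5.88 and 5.17 kb of H3K27ac in FOXD2 lists and 7.63 and 7.78 kb in control lists. A site 50.4 kb from ERRFI1, a feedback inhibitor of EGFR, had 6.99 and 4.89 kb in FOXD2 lists and 8.51 and 9.60 kb in control lists. A site 3.25 kb from PLK3, a kinase gene, had 6.33 and 6.96 kb in FOXD2 lists and 7.28 and 7.04 kb in control lists. The control lists were the higher at these 3 sites, and the margin at PLK3 was small. The ERRFI1 and PLK3 sites carried all 4 tag lists and the ELF3 site 1. A site 35.5 kb from DSP, which encodes desmoplakin, had 4.48 and 7.20 kb of H3K27ac in FOXD2 lists. It had 1.56 and 4.91 kb in control lists, and the groups overlapped.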

How the data were processed

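Histone marks were precipitated from MNase-digested chromatin and MLL4 and the tags from crosslinked, sonicated chromatin, per the labels' protocols. Per the submitters' processing notes, the tools were MACS2 2.2.7.1, Bowtie2 2.3.4.1, cutadapt 3.4, bedtools and Picard, and coordinates are hg38. Of 25 libraries, 18 have a deposited narrowPeak list each, and 7 inputs are not used here. The authors' values per peak are a score, a fold enrichment (a ratio) and the p-value and q-value on a −log10 scale. They served to describe peaks, rank them or filter them, each time inside 1 list. The largest deposited q was 0.01. Read depth and the background used for calling are not given in the sources used here.

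MLL4 peaks were merged with a gap of 0 bp, and any overlap of 1 bp counted as a peak at the site. Coverage is the number of bases under peaks within 5 kb of a site's centre. The summit is that of the strongest peak of control replicate 1. Genes are the nearest protein-coding genes within 100 kb in the RefSeq table, measured to the gene's span because the table gives no strand. Replicate numbers are those of the labels. In 8 of 18 lists, all 4 of H3K27ac among them, the peak names carry another number, shifted alike in FOXD2 and control lists. Groups of 2 libraries were compared by two-sided exact permutation tests, and site classes by two-sided exact sign-flip permutation tests over 4 lists. Shares carry Wilson 95% intervals, which cover the counting of sites only. The steps were tested on simulated lists.

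The sites, gene lists and tests were chosen with earlier results of these data known. Named genes were the 10 sites of lowest rank sum over the MLL4 lists, the 5 genes with most sites, the 5 sites of lowest rank sum over the tag lists, up to 4 sites of each class with changed H3K4me1 or H3K27ac, up to 3 genes of each gene list, and KMT2D, KDM6A and FOXD2. KMT2D and KDM6A had no site. Sequence within the sites was read only where a promoter of the promoter table touched a site. Software was scipy 1.17.1, pandas 2.3.3, matplotlib 3.10.9 and numpy 2.4.6 under Python 3.11.15.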

Additional observations from a re-analysis of the deposited data

How the results depend on the processing

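Of 228 values under other settings 29 counts or shares moved. A reversal could be called only for the 99 tested differences with a main value other than 0, and none reversed. The FOXD2 minus control difference in H3K4me1 share was 0 in the main setting and -1.87 points with 50% overlap. No p-value could fall below 0.333 or 0.125, so tests say nothing of stability, and of 99 differences with such a test 11 moved by over 1.5 times in size. The H3K4me1 class difference (1.71 points) was 0.151 over 2 kb from gene ends, 8.48 with 50% overlap and 8.82 at MLL4 summits, and that of H3K27ac -20.3 with 50% overlap and -22.9 at summits. The H3K4me1 coverage difference was 431 bp at equal list lengths, and within 2 kb coverage differed by 263 bp for H3K4me1 and 620 bp for H3K27ac. The H3K27ac share difference was 14.6 points at summits. Equal list lengths left 209 sites, 94 with more and 18 with less H3K27ac in both FOXD2 lists, and 100 and 55 for H3K4me1. Requiring no H3K4me3 in either list left 241 sites, with 129 and 8 for H3K27ac, 133 and 42 for H3K4me1, and 63.1% with both marks in all lists. That share was 43.8% with an overlap of 50% of the shorter interval. The 2 kb window gave 61 sites with less H3K4me1, and 66.7% of sites were over 5 kb from gene ends. Peaks with −log10 q of 5 or more left 325 sites.

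With 1 library left out at a time, the sites numbered 542 to 965, the share over 2 kb from gene ends was 81.8% to 87.2%, and the share with both marks in all lists 61.5% to 72.4%. Sites with more H3K27ac in FOXD2 lists numbered 273 to 448 and with less 31 to 98, and for H3K4me1 253 to 422 and 104 to 231. The FOXD2 minus control difference in coverage was 877 to 1473 bp for H3K27ac and 478 to 877 bp for H3K4me1. A rule of 3 MLL4 lists, or an order over 3 lists, is looser by its construction. The highest site count came without FOXD2 MLL4 replicate 2. The H3K27ac share difference was 4.64 to 12.9 points, and the class differences were -15.9 to -11.2 points for H3K27ac, 1.54 to 4.72 for H3K4me1 and 12.5 to 18.0 for the tags.

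A check of whether replicate numbers pair the groups gave correlations of 0.14 for H3K4me1 and -0.63 for H3K27ac over 35854 regions. It concerns the pairing of numbers only and does not mean that the lists hold opposite sites. Of these regions, 49% held H3K27ac in all 4 lists. With replicate number as a block, counted pair by pair, 259 sites had more and 39 less H3K27ac, and 261 and 113 for H3K4me1, with the differences unchanged at 1175 and 693 bp. With H3K27ac numbers crossed, chosen after seeing the data as was the count at MLL4 summits, 294 had more and 47 less. Depth is unknown and limits all statements on missing peaks.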
